A study of Mus musculus with 391 samples.

Results

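The genes described here are 10 that carry glucose from the cell surface to lactate: the glucose transporter Slc2a3, the hexokinases Hk1, Hk2 and Hk3, the phosphofructokinases Pfkl and Pfkp, the aldolase Aldoa, the pyruvate kinase Pkm and the lactate dehydrogenases Ldha and Ldhb. They were chosen by name, because most of them belong to families in which several genes encode the same reaction, and they are 10 of the 56941 genes in the table of read counts. All 10 were found there. The cells came from brains of adult mice: the tissue was broken up mechanically and with enzymes, vascular fragments were collected and digested to free cells, and these were sorted into multi-well plates for Smart-seq2, which makes a full-length cDNA library from each cell. GEO's labels call 280 of the cells microglia and 111 endothelial, named MG and CP-EC in the deposited cell table. No strain, treatment, sex or animal is stated for either class. With no label tying a cell to an animal, each class is a single sample, and no test of a difference between the classes was possible.

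Glycolysis begins when a hexokinase phosphorylates glucose that a transporter of the Slc2a family has let in, which traps the sugar in the cell. Phosphofructokinase then makes the committed step, aldolase splits the sugar, pyruvate kinase yields pyruvate and ATP, and lactate dehydrogenase turns pyruvate to lactate or lactate to pyruvate. The isoforms differ in regulation: Hk1 is the hexokinase of most brain cells, Hk2 an inducible form, Hk3 a form known from myeloid cells, and Ldha and Ldhb are the muscle-type and heart-type subunits of the lactate dehydrogenase tetramer.

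Values are reads of a gene scaled to the total of gene reads (CPM), pooled over the cells of a class. The microglia class held 47508014 reads (39876 to 504875 per cell, median 146506) and the endothelial class 21361227 (83954 to 602175 per cell, median 174345). Intervals are exact at 95% and cover counting error only, since these reads carry no molecular identifiers and the spread between animals is unknown. The cell names begin with 4 prefixes, called plates A to D here: microglia-class cells were on plates A (133 cells) and B (147 cells), and endothelial-class cells on plates A (7), B (10), C (50) and D (44). For plates C and D, plate and class cannot be told apart. No cell name was used more than once and no cells held identical counts. All 15 microglia markers were above 1 CPM in the microglia class (summed level 27954 CPM, against 150.4 CPM in the endothelial class), and all 15 endothelial markers in the endothelial class (28497 CPM, against 283.5 CPM in the microglia class). Markers of the other class summed to over 1000 CPM in 24 microglia-class cells and 1 endothelial-class cell. The microglia class was not uniform, as its clusters show. Markers of fenestrated endothelium summed to 24512 CPM in the endothelial class and those of barrier endothelium to 2206 CPM.

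Some isoforms divided between the classes, whereas the other genes did not separate as far. Hk2, Hk3, Slc2a3 and Ldhb passed a 4-fold limit toward the microglia class (4 of 10 genes, where 19.9% of the 14989 genes measured were that much higher there). Hk1 was at least 4-fold higher in the endothelial class (1 of 10, background 11.7%). The remaining 5 genes, Pfkl, Pfkp, Aldoa, Pkm and Ldha, lay between these limits, each 1.54-fold to 2.29-fold higher in the endothelial class in pooled reads. Means of per-cell CPM lay further apart for Pfkl, at 60.2 CPM in the microglia class and 219 CPM in the endothelial class. For Pfkp they were 58.8 and 184.5 CPM. The limit was set on log2(CPM + 1), which understates changes of low genes, and genes below 1 CPM in both classes were left out as not measured. All 10 genes were measured, and Hk2, Hk3 and Slc2a3 were so through the microglia class alone. At a 2-fold limit the counts were 4 toward the microglia class (background 37.2%) and 3 toward the endothelial class (background 22.1%). The median log2 ratio of the 10 genes was −0.73, and that of all measured genes 0.36.

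The same count on single plates rests on few endothelial-class cells. On plate A, 4 genes passed the limit toward the microglia class (background 46.5%) and 2, Hk1 and Pfkl, in the endothelial class (background 10.9%). On plate B the numbers were 4 (background 48.4%) and 0 (background 11.5%). The 4 genes of the microglia class were the same on both plates, and 4 of 10 was below the background there.

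**Figure D1:**
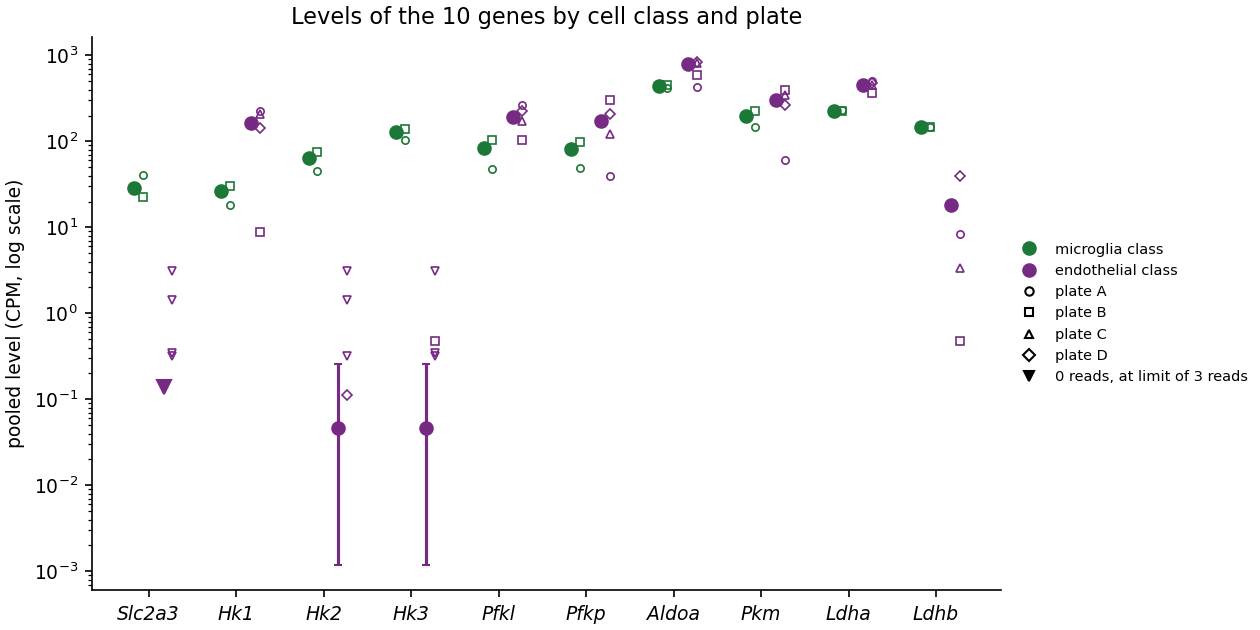
Pooled level of each gene (CPM, log axis) in the microglia class (green) and the endothelial class (purple), with filled points for the class and its 95% counting interval, and open points for each plate. Slc2a3 had 0 reads in the endothelial class and is drawn at the limit that 3 reads would give, and endothelial-class Hk1 on plate B, at 8.96 CPM, lies below both microglia-class plates.

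Slc2a3, the high-affinity glucose transporter best known from neurons, was read in the microglia class at 29.0 CPM (interval 27.5 to 30.6) and in the endothelial class by 0 of 21361227 reads. Against a limit of 3 reads over the endothelial class, the microglia class was at least 206.7-fold higher. On plates A and B the microglia class had 41.2 and 22.4 CPM. Few cells carried the gene: 23 of 280 microglia-class cells had a read (8.21%), with a highest level of 909 CPM, and 16 had 10 or more reads. In the endothelial class 0 of 111 cells had a read, which by the limit of 3 counts allows a share of cells with a read of up to 2.70% (exact upper limit 3.27%) and does not bound the share of cells with the transcript. Since neurons express this gene strongly, neuron markers were measured beside it: the 10 genes of that list summed to 22.1 CPM in the microglia class and 16.9 CPM in the endothelial class, where 6 of them, Snap25, Syt1, Rbfox3, Camk2a, Gad1 and Slc17a7, were at 0. Leaving out the 12 and 5 cells with summed neuron markers over 100 CPM gave a log2 ratio for Slc2a3 of 4.96, against 4.91 with all cells.

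Slc2a1, the transporter of brain capillaries, is not among the 10 but sets the scale for Slc2a3. It had 80.7 CPM in the microglia class and 182 CPM in the endothelial class. Scaled by merged exon length, Slc2a3 made up 14.8% of the reads of these 2 transporters in the microglia class, on plate A 27.2% and on plate B 10.2%, and 0% in the endothelial class. Of 36 microglia-class cells with 10 or more reads of the pair, 20 had over 90% Slc2a1 and 11 over 90% Slc2a3, so most such cells held nearly all reads of a single transporter.

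The hexokinases showed the sharpest division. Hk1 had 26.2 CPM (24.7 to 27.7) in the microglia class and 162 CPM (157 to 168) in the endothelial class, where it was 6.20-fold higher (5.81 to 6.62). Hk2 had 64.3 CPM (62.0 to 66.6) in the microglia class, and 1 read in the endothelial class (0.0468 CPM), a ratio of 1374 with a counting interval of 246 to 54273. Hk3 had 127 CPM (124 to 131) in the microglia class, and again 1 read in the endothelial class, a ratio of 2719.8 with an interval of 488 to 107445. The 2 stray reads lay in different plates, the Hk2 read on plate D and the Hk3 read on plate B.

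The promoters of the hexokinase and lactate dehydrogenase genes are printed because these are the families whose members went in opposite directions. The windows are RefSeq's for build GRCm38.p6, from 250 bases before to 50 bases after the annotated start, 5′ to 3′ on the gene's strand. Capitals mark ACGTG, the core of the hypoxia response element, or its reverse complement CACGT. For the hexokinases the windows are chr10:62379859-62380158 (minus strand, the first of 2 annotated Hk1 starts), chr6:82774405-82774704 (minus strand, Hk2) and chr13:55021336-55021635 (minus strand, Hk3).
Hk1: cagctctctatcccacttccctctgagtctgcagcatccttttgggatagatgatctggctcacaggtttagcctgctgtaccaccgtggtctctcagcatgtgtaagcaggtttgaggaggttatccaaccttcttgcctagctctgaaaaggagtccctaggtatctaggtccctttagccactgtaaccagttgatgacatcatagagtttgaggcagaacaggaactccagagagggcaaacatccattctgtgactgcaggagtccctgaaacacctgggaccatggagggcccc
Hk2: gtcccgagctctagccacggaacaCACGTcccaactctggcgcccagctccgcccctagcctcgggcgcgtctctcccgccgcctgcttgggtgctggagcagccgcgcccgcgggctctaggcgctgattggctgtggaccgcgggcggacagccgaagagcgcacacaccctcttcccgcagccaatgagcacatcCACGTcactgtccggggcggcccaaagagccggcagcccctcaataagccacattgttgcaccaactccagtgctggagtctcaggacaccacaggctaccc
Hk3: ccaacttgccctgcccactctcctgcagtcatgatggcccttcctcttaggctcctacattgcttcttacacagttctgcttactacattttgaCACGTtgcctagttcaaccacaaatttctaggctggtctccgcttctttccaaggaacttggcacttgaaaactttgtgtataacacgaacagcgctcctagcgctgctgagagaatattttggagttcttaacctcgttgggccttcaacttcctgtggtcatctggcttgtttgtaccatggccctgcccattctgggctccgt
The Hk2 window held 2 matches, the Hk3 window 1 and this Hk1 window 0, while the window of the other Hk1 start held 2. A match is a description of the letters and not a binding site.

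Plate by plate, Hk2 and Hk3 kept their direction and Hk1 did not. Hk2 had 45.1 and 74.8 CPM on plates A and B in the microglia class, and Hk3 105 and 139 CPM. Endothelial-class cells of plates A and B held 0 reads of Hk2 and 1 read of Hk3. Hk1 had 18.3 and 30.5 CPM on plates A and B in the microglia class, against 227, 8.96, 209 and 142 CPM on plates A to D in the endothelial class. On plate B, where the endothelial class was 10 cells, its Hk1 level was thus below that of the microglia class (log2 ratio 1.66), while on plate A it was above (log2 ratio −3.56). The part of plate in this difference was not tested.

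Within a class most cells had no read of a given hexokinase. Hk1 was read in 9.29% of microglia-class cells (26 cells, interval 6.16% to 13.3%) and 36.9% of endothelial-class cells (41 cells, 28.0% to 46.6%). Hk2 was read in 43.9% of microglia-class cells (123 cells, 38.0% to 50.0%) and in 1 endothelial-class cell. Hk3 was read in 30.7% of microglia-class cells (86 cells, 25.4% to 36.5%) and in 1 endothelial-class cell. The order of the classes was the same when 71000 reads were drawn from every cell, a depth that 34 microglia-class and 0 endothelial-class cells did not reach. Thinned shares in the microglia class and the endothelial class were 6.91% and 29.7% for Hk1, 37.0% and 0% for Hk2, and 26.4% and 0% for Hk3. Hk2 was read in more microglia-class cells than Hk3, but 53 microglia-class cells had 10 or more Hk3 reads and 44 had as many Hk2 reads.

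**Figure D2:**
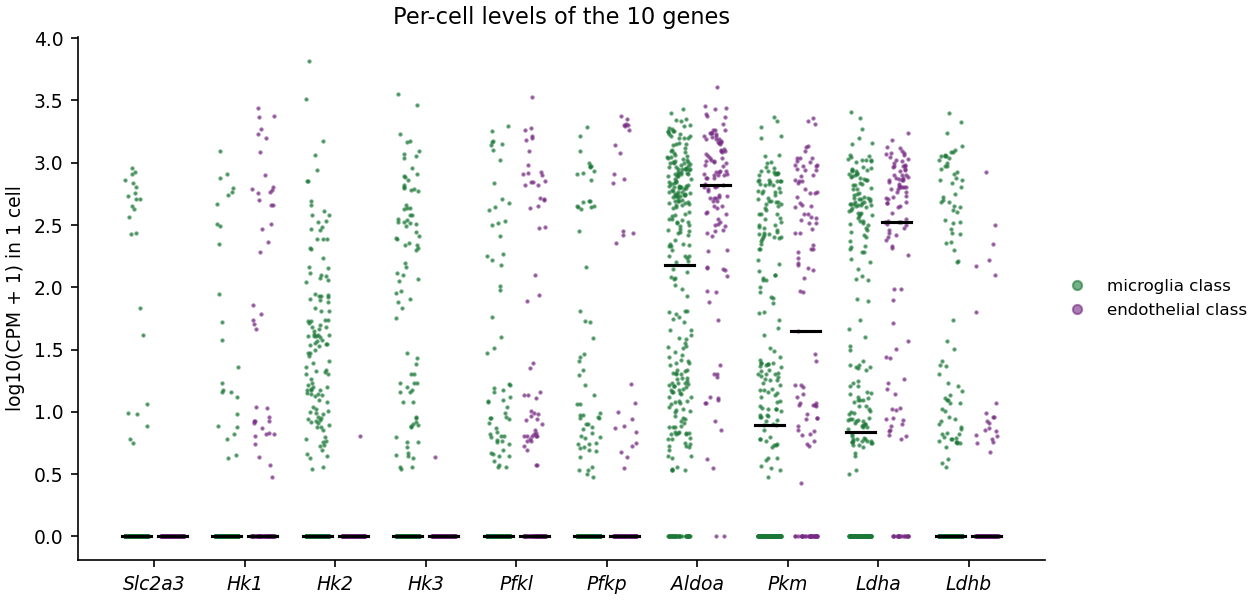
Level of each gene in every cell, as log10(CPM + 1), for the 280 microglia-class cells (green) and the 111 endothelial-class cells (purple), with a black bar at the median. The median is at 0 in both classes for 7 of the 10 genes, and Aldoa, Pkm and Ldha alone have medians above 0, in both classes.

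Cells seldom held more than 1 hexokinase at 10 or more reads. In the microglia class 181 cells held none, 90 held 1, 8 held 2 and 1 held all 3. Hk2 and Hk3 met in 6 cells, Hk2 stood without Hk3 in 38, Hk3 without Hk2 in 47, and neither reached 10 reads in 189. Hk3 was present in 13.6% of the cells with Hk2 and 19.9% of the cells without it, shares that mix the clusters described below. In the endothelial class 22 cells held Hk1 and 89 held none. With so many cells at 0 in libraries of this depth, a cell without reads cannot be called a cell without transcript.

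Pooled and scaled by length, the hexokinase reads of the microglia class were 71.4% Hk3, 22.3% Hk2 and 6.34% Hk1, and those of the endothelial class 99.9% Hk1. Merged exon lengths include retained introns (8532 bases for Hk1, against 4278 in its longest coding transcript). With the coding transcript in their place the microglia-class shares were 69.0% Hk3, 20.3% Hk2 and 10.7% Hk1. Of 100 microglia-class cells with 10 or more hexokinase reads, 49 were over 90% Hk3, 34 over 90% Hk2 and 8 over 90% Hk1. All 22 such endothelial-class cells were over 90% Hk1. In all, 91 of the 100 microglia-class cells held over 90% of a single isoform. The same held for 104 of 120 microglia-class cells and 71 of 76 endothelial-class cells with 10 or more lactate dehydrogenase reads.

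The microglia class was clustered with these 10 genes and the other glycolysis genes left out, and the clusters are described, not tested. Cluster 1 (106 cells, led by Apobec1 and Axl) met no marker rule and stays unnamed. Cluster 2 (76 cells) was border-associated-macrophage-like, with Clec4n and Cd38 among its leading genes and Mrc1 at 3601 CPM. Cluster 3 (59 cells) was microglia-like, with Sall1 among its leading genes at 442 CPM. Cluster 4 (39 cells) was dendritic-cell-like, led by Napsa, with H2-Aa at 7223 CPM and Cd209a at 2421 CPM. Of 9 dendritic-cell markers 4 had reads in enough of its cells to count for a name (median log2 ratio 2.92). Ccr7 and Xcr1, also on that list, had no reads in the microglia class. The MHC class II list reached the numerical limits for a name too (7 of 7 markers, median 2.22). MHC class II-high would therefore also be a possible name. The 8 monocyte and neutrophil markers summed to 1111 CPM there. All clusters held cells of both plates.

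Each hexokinase peaked in a different cluster. Hk3 had 307 CPM (297 to 316) in the border-associated-macrophage-like cluster, 109 CPM in the microglia-like, 60.3 CPM in cluster 1 and 4.21 CPM in the dendritic-cell-like cluster. Hk2 had 129 CPM (123 to 136) in the microglia-like cluster, 64.7 CPM in cluster 1, 60.1 CPM in the dendritic-cell-like and 7.02 CPM in the border-associated-macrophage-like cluster. Hk1 had 81.6 CPM (75.8 to 87.7) in the dendritic-cell-like cluster and 0.395 CPM in the border-associated-macrophage-like cluster. The border-associated-macrophage-like cells, with 26.7% of the reads of the class, held 64.2% of its Hk3 reads and 2.91% of its Hk2 reads. At 10 or more reads, 28 of them held Hk3 alone, 1 Hk2 alone, 0 both and 47 neither. In the microglia-like cluster 5 cells held both, 17 Hk2 alone, 9 Hk3 alone and 28 neither. Slc2a3, too, was highest in the dendritic-cell-like cluster, at 84.8 CPM (134 and 69.8 CPM on plates A and B), with reads in 6 cells. That cluster, with 19.0% of the reads of the class, held 55.5% of its Slc2a3 reads. Slc2a3 had 22.4 CPM in the border-associated-macrophage-like cluster, 14.65 CPM in cluster 1 and 10.5 CPM in the microglia-like cluster. Of the microglia-like cells 3 had a read of it, and their level on plate A was 0.218 CPM.

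Some of these levels rested on few cells, on a single plate or on the clustering. Hk3 in the dendritic-cell-like cluster was 0.339 CPM without its highest cell, and Hk1 in the border-associated-macrophage-like cluster 0.243 CPM. At the coarser resolution of 0.3 the border-associated-macrophage-like cluster held 168 cells, with Hk1 at 13.9 CPM and Hk2 at 20.2 CPM. The highest Hk2 cell of all, at 6619 CPM, was in cluster 1, whose Hk2 level was 35.5 CPM without it. Hk3 in the border-associated-macrophage-like cluster was 180 CPM on plate A and 442 CPM on plate B, in both cases the highest of the 4 clusters on that plate. Hk2 in the microglia-like cluster was 68.5 CPM on plate A, below the 99.4 CPM of cluster 1 there, and 168 CPM on plate B. Hk1 in the dendritic-cell-like cluster had 5 cells with a read, and 79.6 and 82.2 CPM on plates A and B.

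**Figure D3:**
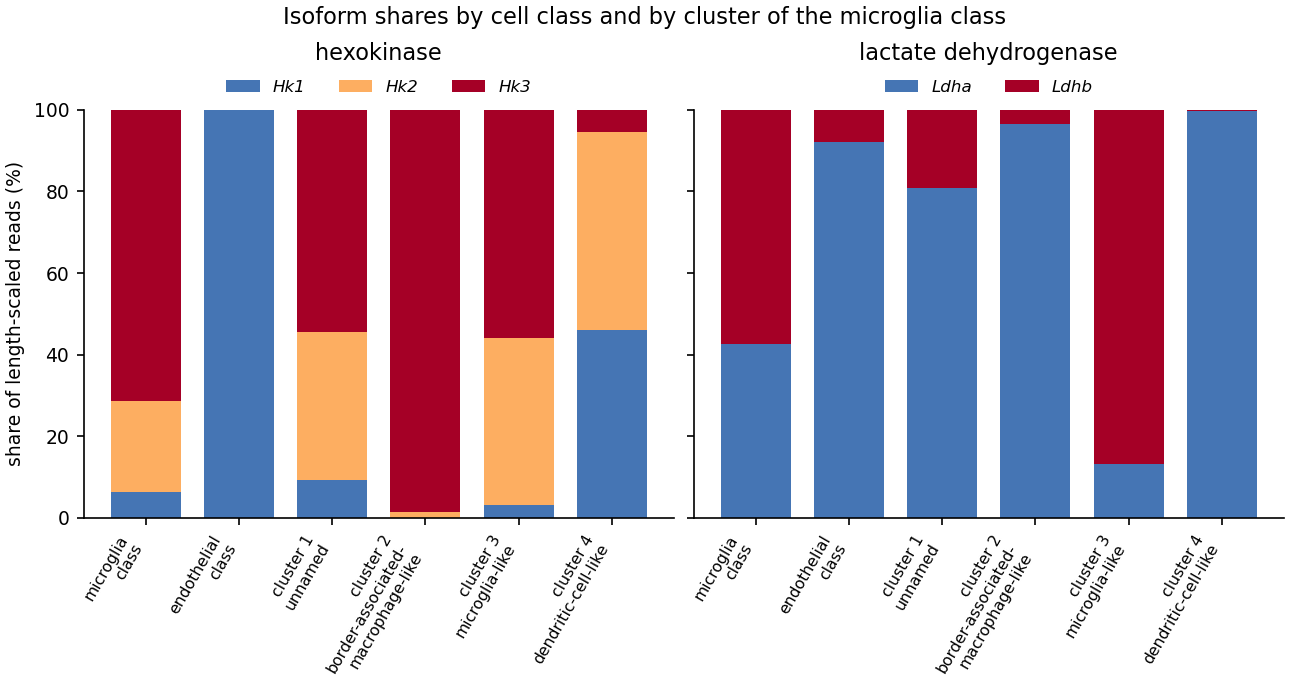
Share of length-scaled reads (percent) of each hexokinase and each lactate dehydrogenase in the microglia class, the endothelial class and the 4 clusters of the microglia class. Hk1 fills the endothelial bar (99.9%), Hk3 fills 98.6% of the border-associated-macrophage-like bar, and Ldhb has most of the lactate dehydrogenase reads in the microglia-like cluster alone among the clusters (86.9%).

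Phosphofructokinase genes did not divide by class. Pfkl, the liver-type subunit, had 83.6 CPM (81.1 to 86.3) in the microglia class and 191 CPM (185 to 197) in the endothelial class, where it was 2.29-fold higher (2.19 to 2.39). Pfkp, the platelet-type subunit, had 81.1 CPM (78.5 to 83.7) in the microglia class and 172 CPM (167 to 178) in the endothelial class, where it was 2.13-fold higher (2.03 to 2.22). Neither held on both shared plates. Pfkl had 47.7 CPM in the microglia class and 266 CPM in the endothelial class on plate A, and 103.3 and 102.8 CPM on plate B. Pfkp had 48.4 and 39.5 CPM on plate A, and 98.9 and 307 CPM on plate B, so that its direction differed between the plates.

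The Pfkp row carries a further limit. In the GENCODE reference 748 bases of its transcripts are identical to transcripts of Pitrm1, a protein-coding gene, whose row held 2049 reads in the microglia class and 1308 in the endothelial class. How reads on shared bases were assigned, and whether strand was used, is not given in the sources used here.

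Both subunit genes were read in a minority of cells. Pfkl was read in 22.1% of microglia-class and 49.5% of endothelial-class cells, and Pfkp in 21.8% and 25.2%. The highest Pfkl cell had 1955 CPM in the microglia class and 3347 CPM in the endothelial class, and 50% of the Pfkl reads lay in 5 and 8 cells. For Pfkp the highest cells had 1940 and 2381 CPM, and 50% of the reads lay in 6 and 4 cells. Pfkl and Pfkp both reached 10 reads in 3 microglia-class cells (Pfkl without Pfkp in 21, Pfkp without Pfkl in 19) and in 4 endothelial-class cells (23 and 12). Pooled over each class, Pfkl had the largest share with either length, but the order of Pfkp and Pfkm turned with the length used. With merged exons Pfkp had 21.5% of the microglia-class reads of Pfkl, Pfkm and Pfkp, and with coding transcripts 36.9%. In the endothelial class it had 23.2% and 38.1%. With merged exons Pfkp led on endothelial-class plate B (59.8%) and in cluster 1 (56.5%). Pfkm then led in the border-associated-macrophage-like (52.0%) and microglia-like (50.4%) clusters.

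Among the clusters, Pfkp was highest in the dendritic-cell-like cells. It had 278 CPM there (268 to 290; 131 and 323 CPM on plates A and B), against 56.8 CPM in the microglia-like, 27.6 CPM in the border-associated-macrophage-like cluster and 23.1 CPM in cluster 1. Without the highest cell of each, the levels were 225, 17.1, 17.1 and 4.56 CPM in the same order. The 39 dendritic-cell-like cells held 65.2% of the Pfkp reads of the class and 19.0% of all its reads. Pfkl had 172 CPM in the dendritic-cell-like and 129 CPM in the microglia-like cluster, and 7.72 CPM in cluster 1. Without the highest cell of each, these levels were 92.4, 95.5 and 3.71 CPM, so that the order of the first 2 clusters rests on single cells.

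Aldoa, which splits fructose 1,6-bisphosphate, was read in more cells than any other of the 10 genes. It had 440.5 CPM (434.5 to 446.5) in the microglia class and 792 CPM (780.0 to 804) in the endothelial class, where it was 1.80-fold higher (1.76 to 1.84). On plates A and B the microglia class had 423 and 450.2 CPM, and on plates A to D the endothelial class had 432, 599, 827 and 840.3 CPM. Plate A thus showed almost no difference (log2 ratio −0.03). A read was found in 87.1% of microglia-class cells and 98.2% of endothelial-class cells, with medians of 149 and 663 CPM. Aldoc had 37.0 CPM in the microglia class and 13.5 CPM in the endothelial class, so that Aldoa made up 91.3% of the reads of these 2 genes per length in the microglia class and 98.1% in the endothelial class.

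Pkm, whose 2 splice forms share a row of the table and could not be told apart, was the only pyruvate kinase gene with reads: Pklr had 0 in both classes. Pkm had 199 CPM (195 to 203) in the microglia class and 306 CPM (298 to 313) in the endothelial class, where it was 1.54-fold higher (1.49 to 1.59). On plate A its direction was the opposite, with 147 CPM in the microglia class and 60.3 CPM in the endothelial class, while on plate B the values were 227 and 397 CPM. It was read in 56.1% of microglia-class and 73.9% of endothelial-class cells. Across the 4 clusters its pooled level was between 143 and 231 CPM, but on plate A it ran from 57.8 CPM in the border-associated-macrophage-like to 241 CPM in the dendritic-cell-like cluster. Pkm, Aldoa (325 to 540 CPM) and Ldha (174 to 288 CPM) were the 3 of the 10 genes whose pooled levels differed least between clusters.

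Rows of near-identical copies held few reads beside those of these abundant genes. How reads that fit a gene and its copy alike were handled is not stated, so reads counted in neither row would not be seen. The reference has 6 copies of Aldoa, 9 of Pkm and 13 of Ldha at 90% identity or more over 200 bases, most of them pseudogenes. Their rows held 0.177% and 0.142% of the reads of gene and copies for Aldoa in the microglia class and the endothelial class, 0.830% and 0.639% for Pkm, and 0.432% and 0.391% for Ldha. No such copy was found for the hexokinases, Slc2a3 or Pfkl, and the 1 copy of Ldhb had no row in the table. Gapdh is different: its copies held 59.6% and 69.6% of such reads, which makes its own level of 53.6 CPM in the microglia class and 46.9 CPM in the endothelial class uncertain.

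Lactate dehydrogenase subunits divided by class in opposite directions. Ldha had 228 CPM (224 to 232) in the microglia class and 453 CPM (444 to 462) in the endothelial class, where it was 1.99-fold higher (1.94 to 2.04). Ldhb had 146 CPM (142 to 149) in the microglia class and 18.4 CPM (16.6 to 20.3) in the endothelial class, and was 7.93-fold higher in the microglia class (7.16 to 8.80). Both directions were seen on each shared plate. Ldha had 231 and 226 CPM on plates A and B in the microglia class, against 499.9, 367, 451 and 472 CPM on plates A to D in the endothelial class. Ldhb had 147 and 145 CPM in the microglia class, against 8.31, 0.471, 3.37 and 40.1 CPM in the endothelial class.

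The Ldha window is chr7:46845554-46845853 (plus strand, the first of 2 annotated starts) and the Ldhb window chr6:142507908-142508207 (minus strand), in the same build and marking.
Ldha: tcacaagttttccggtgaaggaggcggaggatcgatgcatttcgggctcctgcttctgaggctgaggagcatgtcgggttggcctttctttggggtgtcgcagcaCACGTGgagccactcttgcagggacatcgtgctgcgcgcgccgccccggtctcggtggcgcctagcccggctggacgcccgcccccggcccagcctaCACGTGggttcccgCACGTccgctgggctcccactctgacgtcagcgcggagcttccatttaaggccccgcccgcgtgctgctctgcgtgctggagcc
Ldhb: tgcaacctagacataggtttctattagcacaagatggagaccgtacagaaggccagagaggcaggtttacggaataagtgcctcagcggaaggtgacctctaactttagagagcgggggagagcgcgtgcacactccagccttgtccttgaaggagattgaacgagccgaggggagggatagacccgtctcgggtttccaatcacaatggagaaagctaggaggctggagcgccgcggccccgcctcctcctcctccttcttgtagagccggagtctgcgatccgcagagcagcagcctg
The Ldha window held 5 matches on the 2 strands, of which 4 come from 2 copies of CACGTG, the E-box that Myc and Mlxipl bind, since that palindrome contains the shorter motif on each strand. The window of the other Ldha start held 0, and so did the Ldhb window. Over 9 of the 10 genes (all but Slc2a3) the table held 14 windows, and 7 of them contained ACGTG on either strand, against 19.6% of 32851 windows of all genes. A pair of Aldoa windows among the 7 overlap and hold the same match. CACGTG was in 1 of the 14, against 7.15% of all, and GAGGAAGT, a site of the myeloid factor PU.1, in 0 on either strand, against 3.20%.

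Endothelial-class Ldhb came from few cells. A single cell of 840.3 CPM held 33.3% of the reads, and without it the class had 12.4 CPM. Reads were found in 22 of 111 cells (19.8%) and 6 cells had 10 or more. Plate D, with the highest Ldhb level, was also the plate with the highest summed level of mural-cell markers, 431 CPM against 15.6 CPM on the lowest. Their part in the Ldhb level was not tested beyond leaving out the 4 endothelial-class and 2 microglia-class cells with over 1000 CPM of them, which gave a log2 ratio of 3.22, against 2.92 with all cells.

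Microglia-class Ldhb was concentrated in the microglia-like cluster. It had 550.1 CPM there (537 to 564; 529 and 564 CPM on plates A and B), against 32.2 CPM in cluster 1, 3.08 CPM in the border-associated-macrophage-like and 0.554 CPM in the dendritic-cell-like cluster. These 59 cells held 24.6% of the reads of the class and 92.8% of its Ldhb reads. Of 45 microglia-class cells with 10 or more Ldhb reads, 42 were in that cluster, and 29 had as many reads of Sall1, the transcription factor that marks parenchymal microglia. Sall1 reached 10 reads without Ldhb in 9 cells. The level of cluster 1, and with it the Ldhb share there, rests largely on 1 cell, without which it was 9.22 CPM (1.13 and 42.6 CPM on plates A and B with all cells). Without their highest cells the border-associated-macrophage-like and dendritic-cell-like clusters had 1.51 and 0.345 CPM. In the comparison of the classes, the border-associated-macrophage-like cells alone, set against the endothelial class, turned the direction of Ldhb (log2 ratio −2.25).

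The same cells gave the pair its unusual balance. In the microglia-like cluster 15 cells held both subunits at 10 or more reads, 27 held Ldhb alone, 3 Ldha alone and 14 neither. In the dendritic-cell-like cluster 22 cells held Ldha alone and 17 neither. Per length, Ldhb made up 86.9% of lactate dehydrogenase reads in the microglia-like cluster, 19.1% in cluster 1, 3.60% in the border-associated-macrophage-like and 0.418% in the dendritic-cell-like cluster. For the whole microglia class the share was 57.4%, and 47.1% with coding lengths, so that which subunit led the class depended on the length used. In the endothelial class it was 7.88%, with 92.1% Ldha. Pooled Ldha ran from 174 CPM in the border-associated-macrophage-like cluster to 288 CPM in cluster 1. In the microglia-like cluster it was the highest of the 4 on plate A (303 CPM) and the lowest on plate B (92.2 CPM).

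**Figure D4:**
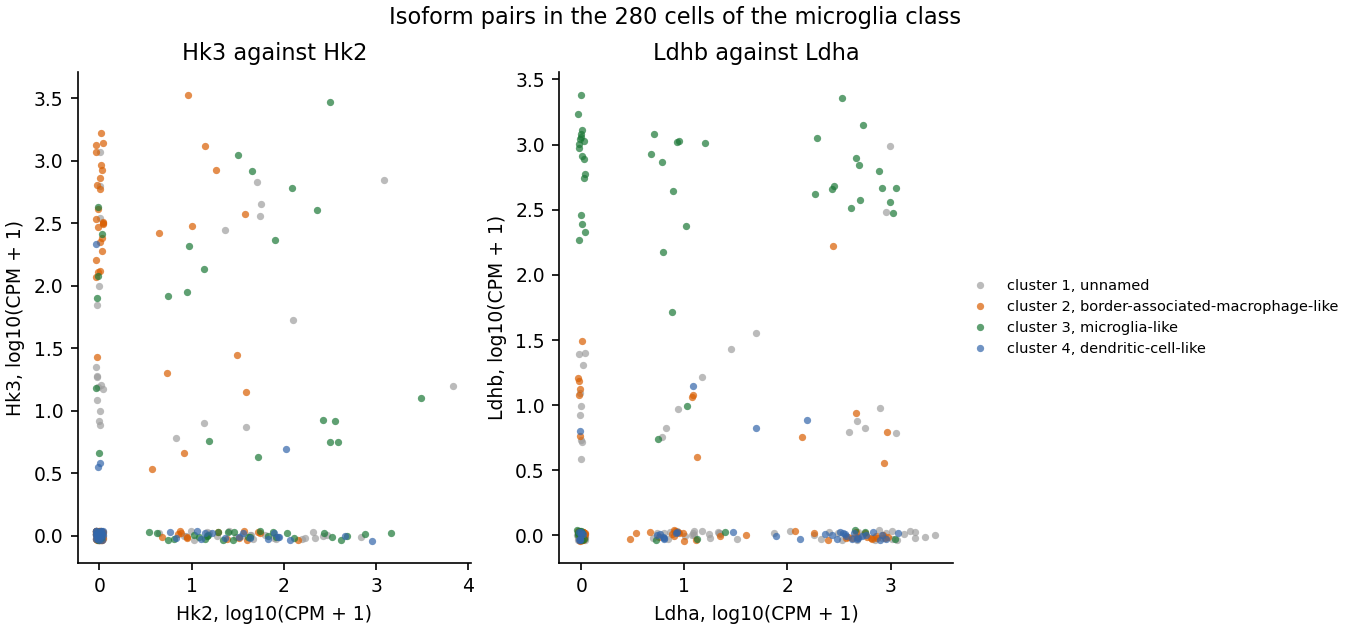
Each point is 1 of the 280 microglia-class cells, coloured by cluster, with log10(CPM + 1) of Hk2 and Hk3 on the left and of Ldha and Ldhb on the right, and a small random shift so that points at 0 can be seen. Most cells lie on an axis for Hk2 and Hk3, while the microglia-like cells (green) fill the upper part of the Ldhb axis, 15 of them with both subunits at 10 or more reads.

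By the rule of a Spearman correlation of at least 0.5 over the cells of a class, among genes read in at least 50% of its cells, a single gene was like any of the 10: Sparc, which encodes a secreted matrix-associated protein, with Ldhb in the microglia class (rho 0.52 over 280 cells, the highest of 1144 genes). The 2 values of a point share a cell and its depth, and the cells differ in depth and lie on 2 plates. Sparc, like Ldhb, was highest in the microglia-like cluster, at 3727 CPM against 88.0 CPM in the rest of the class. The part of cluster in this correlation was not tested. No gene passed for any of the 10 in the endothelial class.

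**Figure D5:**
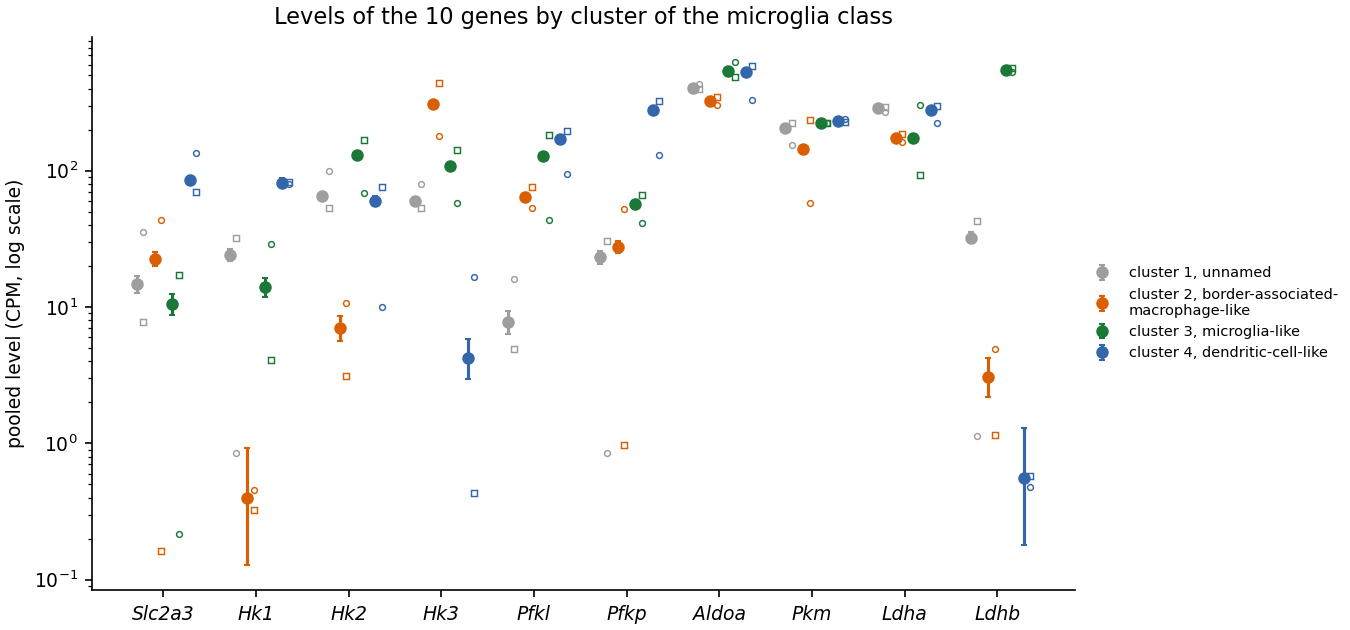
Pooled level of each gene (CPM, log axis) in the 4 clusters of the microglia class, with 95% counting intervals, and open circles and squares for plates A and B. The pooled levels of Aldoa, Pkm and Ldha lie close together across clusters, though plate values spread further, whereas Ldhb runs from 0.554 CPM in the dendritic-cell-like to 550.1 CPM in the microglia-like cluster.

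The order of the genes within a class can be read only per length, as CPM per kilobase of merged exon. In the microglia class it ran Aldoa (119), Ldhb (92.9), Ldha (68.9), Pkm (39.7), Hk3 (34.6), Pfkl (12.5), Hk2 (10.8), Pfkp (6.05), Slc2a3 (4.01) and Hk1 (3.07). Neighbours whose plate values overlapped were Pkm and Hk3 (29.4 and 45.4 against 28.5 and 37.9), Pfkl and Hk2, Pfkp and Slc2a3, and Slc2a3 and Hk1. In the endothelial class the order was Aldoa (213), Ldha (137), Pkm (61.1), Pfkl (28.6), Hk1 (19.0), Pfkp (12.9) and Ldhb (11.7), followed by Hk3 (0.0127), Hk2 (0.00784) and Slc2a3 at 0. From Aldoa to Ldhb the plate values of all neighbours overlapped except those of Ldha and Pkm. With coding transcripts in place of merged exons, Ldha (126) stood above Ldhb (112) and Pfkp (19.6) above Hk2 (11.7) in the microglia class, and Pfkp (41.6) above Hk1 (38.0) in the endothelial class.

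Spread over cells was smallest for the 3 genes read in most cells. The coefficient of variation of per-cell CPM was lowest for Aldoa (1.31 in the microglia class and 0.895 in the endothelial class), Ldha (1.83 and 0.978) and Pkm (2.01 and 1.46). It was highest in the microglia class for Hk2 (5.54) and Hk1 (5.51), and in the endothelial class for Ldhb (5.05). Spread depends on level, so each value was placed among genes of that class with a level from 0.5 to 2 times its own. Ldha in the endothelial class stood at percentile 8.69 of 702 such genes, and Hk2 in the microglia class at percentile 91.0 of 4276. That high value for Hk2 comes in part from the cell at 6619 CPM, which alone held 13.6% of the Hk2 reads, and within plates the coefficient ran from 3.10 to 5.19. Ldhb in the microglia class, for all its concentration in a single cluster, stood at percentile 48.5. In the microglia class reads were most concentrated for Hk1, with 50% in 3 cells, and in the endothelial class, leaving aside the single reads of Hk2 and Hk3, for Ldhb, with 50% in 2 cells. They were least concentrated for Aldoa, with 50% in 32 microglia-class and 25 endothelial-class cells.

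Of 89 other genes in 8 lists around glycolysis, 77 were measured. The limit was passed by 15 toward the microglia class (19.5%) and by 10 toward the endothelial class (13.0%), shares near the background of 19.9% and 11.7%, and their median log2 ratio was 0.20. In the list of regulators (8 of 10 measured, 3 higher in the microglia class and 1 in the endothelial class) the named genes differed widely. Pfkfb4, a kinase and phosphatase that sets the activator of phosphofructokinase, had 131 CPM in the microglia class and 0 reads in the endothelial class (at least 929.8-fold higher). Myc had 138 CPM in the microglia class and 3 reads in the endothelial class, and Mlxipl, the carbohydrate response factor ChREBP, 118 CPM and 2 reads. Epas1, the endothelial hypoxia factor HIF-2α, had 6.08 CPM in the microglia class and 1991 CPM in the endothelial class. Hif1a was close, at 107 and 121 CPM.

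Counts in the single lists, of 5 to 13 measured genes each, are descriptions to be read against the same background. Of 9 measured sugar transporters 2 were higher in the microglia class (22.2%), the fructose transporter Slc2a5 (213 CPM, against 5.06 CPM in the endothelial class) and Slc2a6 (51.5 CPM, against 1 read). The endothelial class was higher for 4 (44.4%), Slc2a4 (0.0631 CPM in the microglia class and 8.05 CPM in the endothelial class), Slc2a10 (0.147 and 21.8 CPM), Slc2a12 (0 and 7.12 CPM) and Slc2a13 (0 and 3.70 CPM), while Slc2a8 (88.4 and 61.0 CPM) was not. Slc2a5 was highest in the same cluster as Ldhb: the microglia-like cells held 99.4% of its microglia-class reads and 93.8% of those of Mlxipl. Of 5 measured genes of lactate transport, Slc16a7, a carrier with high affinity for lactate and pyruvate, had 67.9 CPM in the microglia class and 4.59 CPM in the endothelial class, and Emb, a chaperone of such carriers, 79.4 and 0.375 CPM. Slc16a1 had 11.5 CPM in the microglia class and 40.5 CPM in the endothelial class, and Bsg, its other chaperone, 639 and 844 CPM.

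The other enzymes of the pathway differed little. Of 13 measured glycolytic enzymes outside the 10, Eno3 was higher in the microglia class (23.3 CPM, against 2.11 CPM in the endothelial class) and Pgam2 in the endothelial class (13.9 CPM, against 1 read in the microglia class). Gpi1 (289 and 316 CPM in the microglia class and the endothelial class), Tpi1 (161 and 101 CPM), Eno1 (115 and 191 CPM) and Gapdh lay between. Of 13 genes of pyruvate entry to mitochondria 0 were higher in the microglia class and 1 in the endothelial class, Pdp1 (4.21 CPM in the microglia class and 49.5 CPM in the endothelial class), while Mpc2, Pdhb, Dlat and Dld all differed by less. Of 8 genes of the pentose phosphate pathway H6pd was higher in the microglia class (58.5 CPM, against 3.00 CPM in the endothelial class), and Taldo1, Pgls, Tkt and Pgd were not. Of 8 glycogen genes 4 were higher in the microglia class, among them Pygl (30.2 CPM, against 0.468 CPM in the endothelial class), Ugp2 (41.2 and 8.52 CPM) and Pgm1 (40.2 and 9.27 CPM).

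Targets of hypoxia factors outside glycolysis did not go one way. Of 13 measured, Car9 (23.1 CPM in the microglia class and 0.328 CPM in the endothelial class) and Mxi1 (75.9 and 17.7 CPM) were higher in the microglia class. Ndrg1 (33.4 and 717 CPM), Ddit4 (1.56 and 12.7 CPM) and P4ha2 (2.51 and 27.7 CPM) were higher in the endothelial class, and P4ha1 and Bnip3l were between. Immediate early genes, which respond to tissue dissociation, were abundant in both classes, their 14 genes summing to 24619 CPM in the microglia class and 10820 CPM in the endothelial class, and Egr2, Egr3, Atf3 and Btg2 passed the limit toward that of microglia. Oligodendrocyte markers summed to 592 CPM in the microglia class and 86.1 CPM in the endothelial class. The part of either in the levels of the 10 genes was not tested beyond leaving out cells rich in oligodendrocyte markers, after which the counts of the 10 genes past the limit were again 4 and 1.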

How the data were processed

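The authors deposited a table of raw counts, whole numbers of reads per gene and cell, and a table naming the type of each of 391 cells. The submitters' processing notes name SAMtools 1.16.1, featureCounts from Subread 1.4.6-p5 and build GRCm39. The aligner, the strand setting and the handling of reads on shared bases are not stated in the sources used here. All 391 count columns matched a cell of the table.

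For each class the reads of all its cells were added up and scaled to CPM. Ratios carry exact conditional binomial intervals, levels exact Poisson intervals and shares of cells exact Clopper-Pearson intervals. Depth was 39876 to 602175 reads per cell. Folds were counted at 4-fold on log2(CPM + 1), among genes at 1 CPM or more in either class. Lengths and copies came from GENCODE vM21, promoters from RefSeq (GRCm38.p6). The 280 microglia-class cells were clustered with scanpy 1.11.5 (2000 variable genes, 20 components, 15 neighbours, Leiden resolution 0.5), leaving out all listed glycolysis genes. A cluster was named when 3 or more markers of a list each had reads in 50% of its cells or more, the median log2 ratio of the list was at least 1 and its leading genes did not go against the name. Doublets were not called. The ratio intervals and fold counts were tested on simulated pooled Poisson reads, which lack the spread between real cells. The clustering, the isoform shares and the motif counts were not tested in this way.

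The 10 genes and all lists were chosen with earlier results of these data known. All 10 are named. Of the other pathway lists, genes past 4-fold and the 4 with the highest CPM are named where they reach 1 CPM, and of correlated genes up to 3 with rho of 0.5 or more among genes read in 50% of cells. Some genes that this rule would name are not reported here. The alternatives leaving out cells rich in oligodendrocyte or mural markers, and the cell with most reads of a gene, were added after seeing the data.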

Additional observations from a re-analysis of the deposited data

How the results depend on the processing

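No paired analysis was possible because the labels give no replicate numbers and each class is a single sample. Over 19 alternatives the count of the 10 genes past the limit toward the microglia class was 4 in all but the comparison of the border-associated-macrophage-like cells alone, which gave 3. The count higher in the endothelial class, 1, became 2 on plate A (10.9% of all genes) and 0 on plate B (11.5%). With the border-associated-macrophage-like cells alone it was 3 (17.5%), and at a 2-fold limit 3 (22.1%). The counts of other pathway genes were 15 in the microglia class and 10 in the endothelial class, of 77 measured with all cells. They became 42 and 5 on plate A, and 34 in the microglia class on plate B. With the border-associated-macrophage-like cells alone they were 9 and 16, and at 2-fold 24 and 16. Toward the microglia class the share of all genes was 19.9% with all cells, 46.5% on plate A and 48.4% on plate B. It was 19.0% with the border-associated-macrophage-like cells alone and 37.2% at 2-fold. Toward the endothelial class it was 11.7% with all cells, and the other shares are given above. Among genes past the limit, the direction turned for Hk1 on plate B (log2 ratio 1.66) and for Ldhb with the border-associated-macrophage-like cells alone (log2 ratio −2.25). The comparisons on plates A and B rest on 7 and 10 endothelial-class cells. The size of the log2 ratios was less stable than the counts. With the mean of per-cell CPM, those of 9 of the 10 genes left their counting limits. Leaving out the cells with over 1000 CPM of markers of the other class moved those of 4 genes beyond these limits.

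The Hk3 share of microglia-class hexokinase reads, 71.4%, was 69.0% with coding lengths, 58.5% without length scaling, 85.7% as a median over cells (94.7% among plate A cells but 2.79% among plate B cells), 74.6% on plate A and 70.2% on plate B. The Ldhb share of microglia-class lactate dehydrogenase reads, 57.4%, was 47.1% with coding lengths, 39.0% without length scaling and 0% as a median over cells. The Hk1 share in the endothelial class, 99.9%, was 100.0% as a median over cells and on plate A and 89.1% on plate B. Other clusterings (with the glycolysis genes, or at resolution 0.3 or 1) gave Ldhb levels of 503 to 595 CPM in the microglia-like cluster and Hk3 levels of 185 to 331 CPM in the border-associated-macrophage-like cluster, but other levels there moved further where that cluster grew from 76 cells. With the glycolysis genes kept (179 cells) Hk1 was 14.0, Hk2 49.9 and Ldhb 22.0 CPM, at resolution 0.3 (168 cells) 13.9, 20.2 and 6.60 CPM, and in the clustering described 0.395, 7.02 and 3.08 CPM. Levels of the microglia-like cluster moved as well. Its Pfkp was 12.0 CPM with the glycolysis genes kept, 42.5 CPM at resolution 0.3 and 6.57 CPM at resolution 1, against 56.8 CPM in the clustering described. Its Slc2a3 was 0.0917, 15.3 and 0.0925 CPM in the same order, against 10.5 CPM. The cause of these shifts was not tested.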

Other observations

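Levels of some regulators and transporters outside the 10 genes in the clusters of the microglia class are given as values, chosen after they were seen. Myc had 274 CPM in the microglia-like cluster, 153 CPM in cluster 1, 93.2 CPM in the dendritic-cell-like and 28.2 CPM in the border-associated-macrophage-like cluster, the last 2 being 60.4 and 16.5 CPM without their highest cells. Hif1a had 193 CPM in the microglia-like cluster and 71.6 to 91.0 CPM in the other 3. Pfkfb4 followed another order, with 195 CPM in cluster 1, 146 CPM in the dendritic-cell-like, 94.3 CPM in the border-associated-macrophage-like and 80.3 CPM in the microglia-like cluster. Slc2a1 had 177 CPM in the dendritic-cell-like cluster, or 96.0 CPM without its highest cell, and 11.8 CPM in the border-associated-macrophage-like cluster. Pfkm, the muscle-type phosphofructokinase subunit, had 79.8 CPM in the microglia-like cluster, 42.1 CPM in the border-associated-macrophage-like, 4.10 CPM in the dendritic-cell-like cluster and 0.566 CPM in cluster 1, but 9 cells of the microglia-like cluster carried all of its reads there. Without the highest cell of each, its levels in the first 3 of these clusters were 31.0, 19.6 and 0.675 CPM.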
